A study of Mus musculus with 12 samples.

Results

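Marrow stromal reticular and matrix genes are a list of 42 transcripts. Support cells of the bone marrow niche, rather than haematopoietic stem cells (HSCs), are known for many of them. The list holds niche factors and receptors, fat-lineage and plasma-type secreted proteins, collagen chains and other matrix proteins. Some members, among them Igfbp4, Trf and Hp, are transcribed in many cell types besides stroma. The 42 members were chosen by a fixed list of gene symbols, part of it drawn up after higher counts in the Ythdc1 KO libraries had been seen, and all 42 were found among the 55335 genes of the count table. The KO against wild type difference of the members is therefore a description: fold changes are given with their errors, members past a threshold are counted beside the share of all genes, and none of these calls is an independent test. RNA sequencing had been carried out on sorted bone marrow HSCs labelled Ythdc1 KO cells (Ythdc1Δ/Δ; Ythdc1fl/fl Mx1-Cre mice) or wild type cells (Ythdc1+/+; Ythdc1+/+ Mx1-Cre mice), strain C57B6. Both genotypes carried Mx1-Cre and both received pIpC, a synthetic double-stranded RNA that switches on this interferon-inducible Cre. The Mx1 promoter is not restricted to HSCs. The methods give 8 weeks as the age of donor mice, crushed bones as the source of marrow, and enrichment on CD117 beads followed by flow sorting. The 12 libraries fall under 3 KO numbers (KO176, KO177 and KO209) and 3 wild type numbers (WT178, WT180 and WT207), with 2 libraries each. Whether a number stands for an animal, a pool or a culture is not given in the labels, so the 2 libraries of a number were summed and 3 samples were compared with 3.

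Reticular cells of the marrow wrap the sinusoids and are known for the leptin receptor, for CXCL12, which holds HSCs in place through CXCR4, and for stem cell factor, the ligand of KIT. They belong to a lineage that also gives rise to marrow fat cells and bone-forming cells, and they lay down collagen and other matrix. HSCs respond to these factors but are not known as their main source. In a bulk sample, more cells of another type and more RNA per cell cannot be told apart.

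Depth ranged from 42098649 to 48095239 counted read pairs per sample and from 20809936 to 24563170 per library. Ythdc1 itself, the gene targeted by the deletion, stood at 56.8, 69.5 and 69.5 CPM (counts scaled to library size) in KO176, KO177 and KO209 and at 75.9, 72.5 and 92.4 CPM in WT178, WT180 and WT207. The KO samples were all lower, but the difference of -0.30 ± 0.13 on the log2 scale (SE, n = 3 against 3) did not pass the test (edgeR quasi-likelihood test, Benjamini-Hochberg adjusted p = 0.521), and gene-level counts include exons that a floxed allele keeps. HSC genes were present throughout: all 20 of a list of HSC genes passed the filter on low counts, among them Lmo2, a transcriptional adaptor, at 1025 TPM (counts scaled to exon length and library size), Ly6a, which encodes SCA1, at 703 TPM, and Cd34 at 474 TPM.

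Of the 42 members, 37 had enough counts to be fitted, and 32 of these lay above 0 and 5 below 0 in KO minus wild type. Their median log2 fold change was 1.19, against -0.01 over all 18234 genes fitted. At an adjusted p under 0.05, 9 members were called higher in KO (Lepr, Cxcl14, Adipoq, Gpx3, Serping1, Agt, Kng1, Kng2 and Sparc) and 0 were called lower, where 0.0877% of all genes were called higher (16 genes) and 0.0494% lower (9 genes). At an unadjusted p under 0.05, 23 members were higher and 0 lower in KO, against 4.28% of all genes higher. In 23 of the 37 all 3 KO samples lay above all 3 wild type samples (7.72% of all genes), and in 1, Pdgfrb, all 3 lay below (8.61% of all genes). Because the list was partly drawn from this contrast, nothing is read from these shares.

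Most members were low in these samples: 36 of the 42 lay below the median level of fitted genes, and 5 were too low to be fitted (Ebf3, Foxc1, Col6a2, Sparcl1 and Lum). Of the 37 that were fitted, 18 did not reach the count minimum in all 3 wild type samples. In all of these but Pdgfra, Col3a1 and Postn, each of the 3 KO samples reached it, and a member that passed only through its KO samples had to differ. These 18 include 6 of the 9 called members (Lepr, Cxcl14, Adipoq, Agt, Kng1 and Kng2), of which Agt, Kng1 and Kng2 reached the minimum in 0 wild type samples, while Gpx3, Serping1 and Sparc reached it in all samples. The calls moved with single samples: without WT178 or without WT180 edgeR called 0 members at an adjusted p under 0.05, and without KO177 or without WT207 it called 1 (Gpx3 and Cxcl12 in turn), although the fold changes of the 9 called members stayed at or above 1.56 on the log2 scale in each of these fits.

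**Figure D1:**
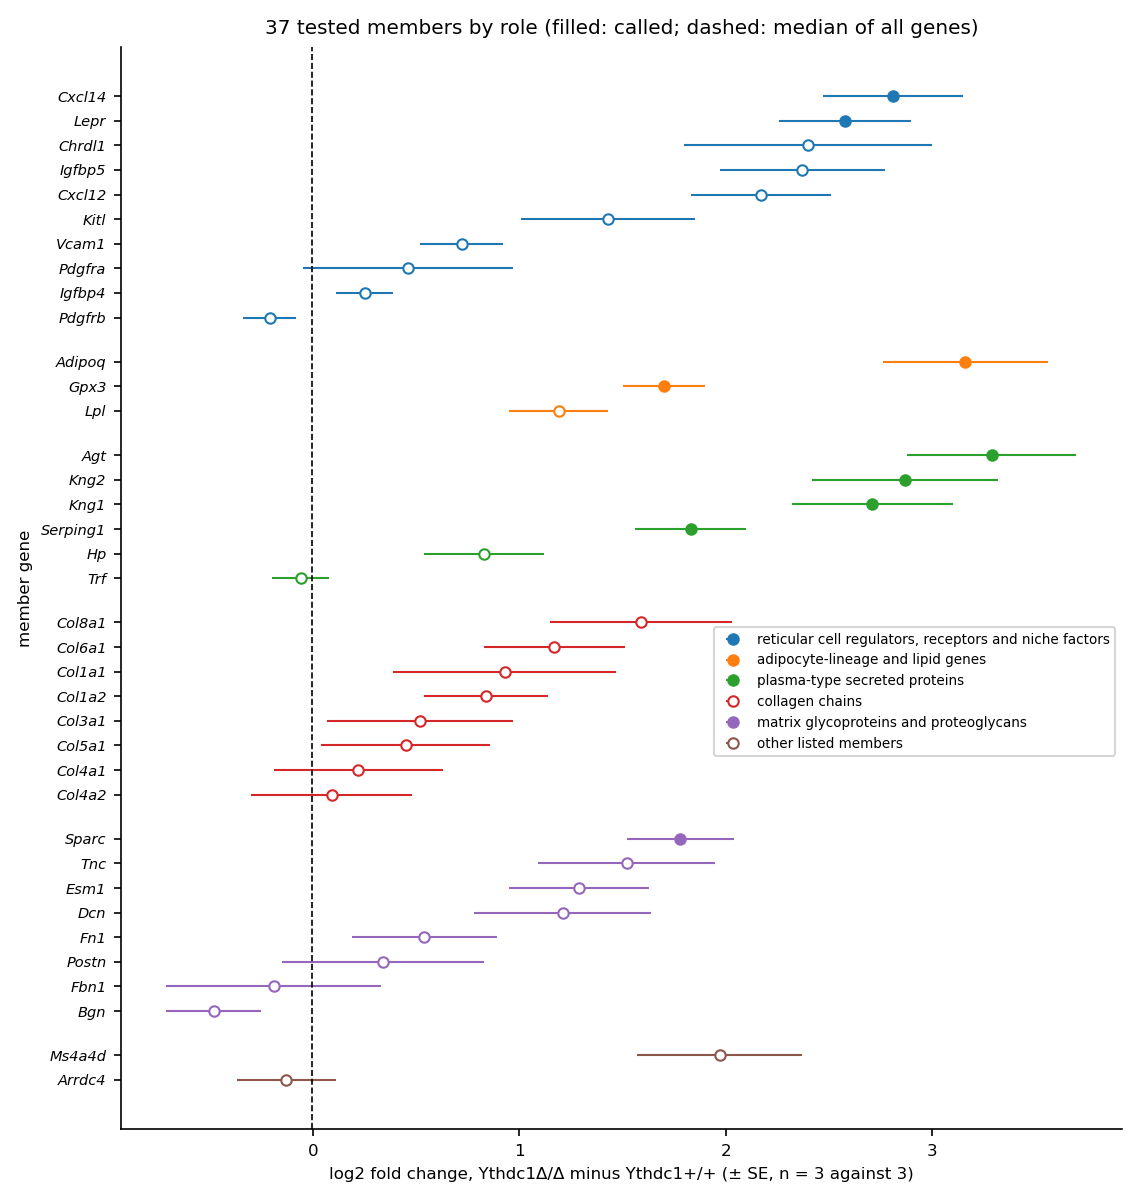
Log2 fold change of KO (Ythdc1Δ/Δ) minus wild type (Ythdc1+/+) HSCs on the x axis for the 37 fitted members, by role on the y axis; bars are SE, filled points are the 9 members called, and the dashed line is the median over all genes. Agt (3.29) and Adipoq (3.16) lie farthest right, and Pdgfrb, Trf, Fbn1, Bgn and Arrdc4 lie left of 0.

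Among receptors and niche factors, the marker receptor of reticular cells and 2 chemokines were higher in every KO sample, while the most abundant genes of the group differed little. Lepr, the leptin receptor (mm10 chr4:101717404-101815352, plus strand), was at 1.73, 1.78 and 1.76 CPM in KO176, KO177 and KO209 and at 0.144, 0.290 and 0.426 CPM in WT178, WT180 and WT207. The KO samples were almost level and all stood above the highest wild type sample, a difference of 2.58 ± 0.32 on the log2 scale. Cxcl12, the chemokine that retains HSCs in marrow, was at 12.5, 16.4 and 17.7 CPM in KO and at 2.35, 2.22 and 5.76 CPM in wild type. Its groups did not overlap either (2.17 ± 0.34), and WT207 stood apart above the other wild type samples. Cxcl14, another chemokine, was at 1.42, 1.49 and 1.01 CPM in KO and at 0.168, 0.166 and 0.213 CPM in wild type, a difference of 2.81 ± 0.34.

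Kitl encodes stem cell factor, on which HSCs depend. It was at 0.307, 0.351 and 0.524 CPM in KO and at 0.120, 0.145 and 0.171 CPM in wild type (1.43 ± 0.42), from 13 to 26 counts per KO sample and 5 to 8 per wild type sample. The groups did not overlap, at a level near the limit of what this depth resolves. Vcam1, an adhesion receptor of stromal cells and macrophages, was at 9.27, 9.83 and 13.2 CPM in KO and at 6.21, 5.39 and 8.10 CPM in wild type (0.72 ± 0.20), again with no overlap. Igfbp5, a binding protein of insulin-like growth factors, was at 0.756, 1.19 and 1.67 CPM in KO and between 0.216 and 0.249 CPM in wild type (2.37 ± 0.40). Chrdl1, an antagonist of bone morphogenetic proteins, was at 0.993, 0.417 and 1.15 CPM in KO and at 0.0960, 0.0415 and 0.341 CPM in wild type (2.40 ± 0.60). KO177 came close to WT207 for Chrdl1, and the difference was 1.91 without WT180 and 3.63 without WT207.

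Of the platelet-derived growth factor receptors, both used to mark mesenchymal cells, Pdgfrb did not follow Lepr and Pdgfra was too low to tell. Pdgfrb was at 48.5, 52.9 and 53.8 CPM in KO and at 54.2, 70.3 and 55.5 CPM in wild type, so that every KO sample was lower by a small margin (-0.21 ± 0.13). Pdgfra was at 0.449, 0.307 and 0.141 CPM in KO and at 0.120, 0.311 and 0.192 CPM in wild type, and the groups overlapped (0.46 ± 0.51). It had 19, 14 and 7 counts in the KO samples and 5, 15 and 9 in the wild type samples. Igfbp4, a second binding protein of insulin-like growth factors, ranged from 500 to 620 CPM in KO and from 434 to 553 CPM in wild type, again with overlap (0.25 ± 0.14). The transcription factors Ebf3 and Foxc1, which maintain reticular cell identity, were too low to be fitted. Ebf3 had 9, 7 and 9 counts in the KO samples and 0, 4 and 6 in the wild type samples, and Foxc1 had 6, 6 and 0 against 9, 3 and 2.

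**Figure D2:**
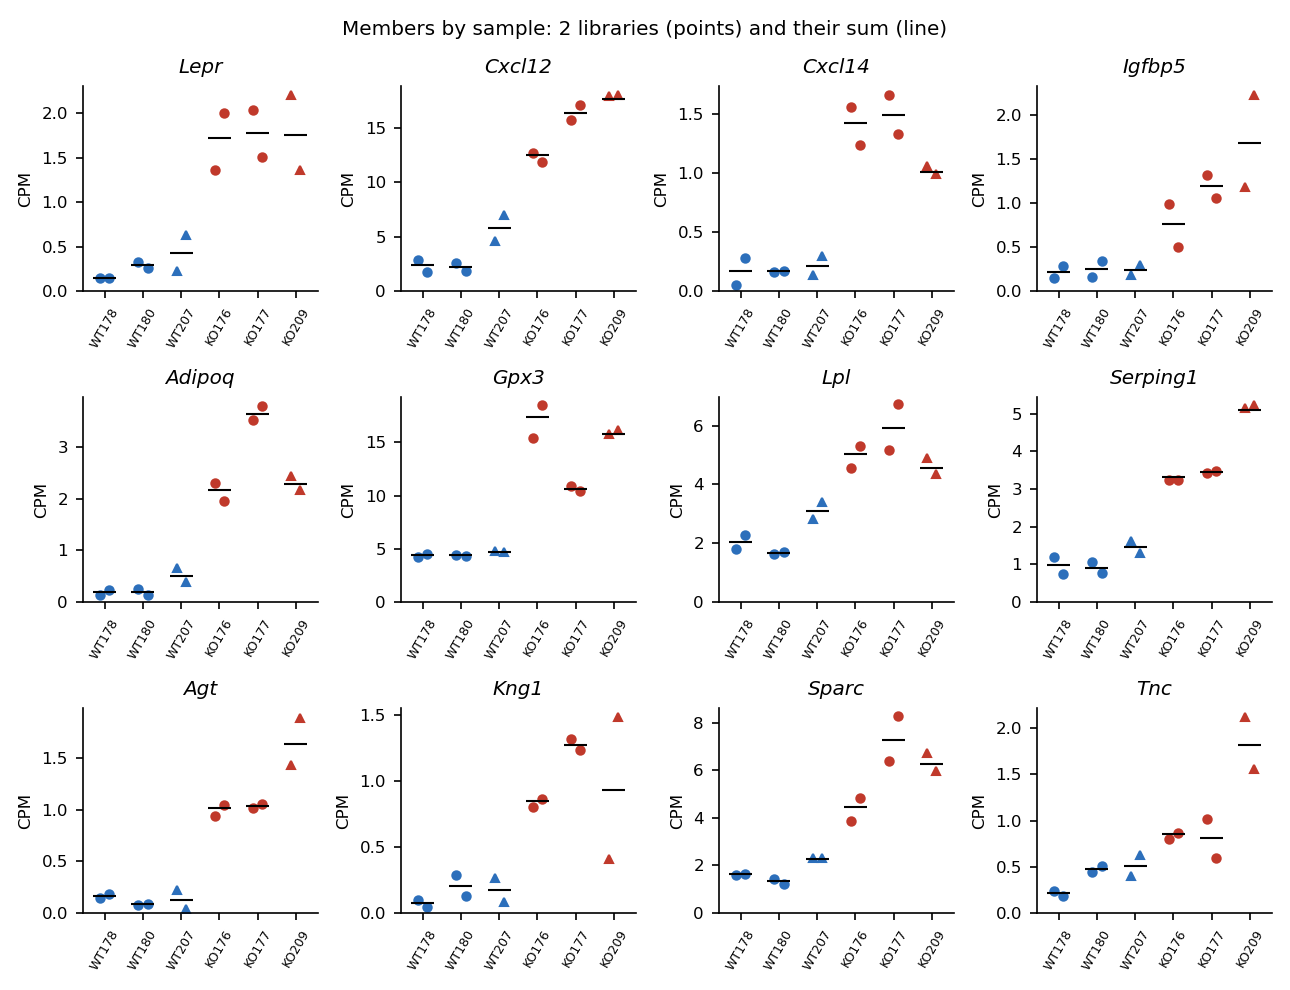
CPM on the y axis of 12 members in the 6 samples on the x axis; points are the 2 libraries of each number (blue wild type, red KO; triangles for WT207 and KO209) and black lines the summed sample. The 12 are all members whose 3 KO samples lay above all 3 wild type samples, and no overlapping member is shown. The separation therefore follows from the choice of panels, and nothing is read from it. In every panel but that of Tnc, each KO library lies above each wild type library, but the 2 libraries of a number are not separate samples. The 2 KO209 libraries of Kng1 stand far apart.

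The 3 fat-lineage and lipid genes were higher in every KO sample. Adipoq, which encodes the fat cell hormone adiponectin and is also transcribed in marrow reticular cells (chr16:23146536-23158028, plus strand), was at 2.17, 3.64 and 2.28 CPM in KO and at 0.192, 0.187 and 0.512 CPM in wild type. KO177 was the highest sample and the groups lay far apart (3.16 ± 0.40). Gpx3, the secreted glutathione peroxidase (chr11:54902453-54910377 by GENCODE, plus strand), was at 17.4, 10.7 and 15.8 CPM in KO and at 4.41, 4.37 and 4.71 CPM in wild type (1.70 ± 0.20). Lpl, the lipase that frees fatty acids from lipoproteins, was at 5.03, 5.91 and 4.56 CPM in KO and at 2.04, 1.66 and 3.09 CPM in wild type (1.19 ± 0.24). Wild type values of Gpx3 were tight and its KO values spread, whereas those of Lpl spread more among wild type samples. The summed level of the 3 genes was 20.2 to 24.6 CPM in KO and 6.22 to 8.31 CPM in wild type.

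Other fat cell genes passed no adjusted test. Of 22 adipocyte genes outside the members, 14 were fitted, with a median log2 fold change of 0.31 (11 above 0), and 0 passed edgeR's adjusted test. At an unadjusted p under 0.05, 3 were higher, each with no overlap and named here after its values were seen: Fabp4, the fatty acid carrier of fat cells and macrophages (1.04 ± 0.29), Dgat2, which makes triglyceride (0.72 ± 0.20), and Scd1, a fatty acid desaturase (0.69 ± 0.31). Plin1, Cidec, Cfd, Lep, Retn and Slc2a4, which define mature fat cells, were among the 8 too low to be fitted. The 3 most abundant genes of that list, Pnpla2 at 139 TPM, Cebpa at 54.0 TPM and Cebpb at 32.4 TPM, are also transcribed in blood cells, and their log2 fold changes were -0.07 ± 0.14, 0.59 ± 0.37 and -0.16 ± 0.17.

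The plasma-type secreted proteins held Agt, which with Adipoq had the largest fold changes of the members. Agt encodes angiotensinogen, the precursor of angiotensin (chr8:124556534-124569706, minus strand). It was at 1.02, 1.03 and 1.63 CPM in KO and at 0.168, 0.0829 and 0.128 CPM in wild type, a difference of 3.29 ± 0.41, and no KO sample came near a wild type sample. Kng1, a kininogen that gives rise to bradykinin, was at 0.851, 1.27 and 0.928 CPM in KO and at 0.0720, 0.207 and 0.171 CPM in wild type (2.71 ± 0.39). Kng2, its neighbouring paralogue, was at 0.567, 0.417 and 0.666 CPM in KO and at 0.0480, 0.104 and 0.0640 CPM in wild type (2.87 ± 0.45). Reads that fit both kininogens equally were not counted, so their separate levels are uncertain. At 19 to 33 counts per KO sample, Kng2 was called in none of the 6 fits that left out 1 sample.

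Serping1, the C1 inhibitor of the complement cascade, was at 3.31, 3.45 and 5.10 CPM in KO and at 0.984, 0.912 and 1.45 CPM in wild type (1.83 ± 0.27). Hp, haptoglobin, which is also a granule protein of neutrophil precursors, was at 236, 114 and 114 CPM in KO and at 88.5, 78.3 and 93.1 CPM in wild type (0.83 ± 0.29). The groups of Hp did not overlap, but KO176 stood far above the other KO samples, and without it the difference was 0.40. Trf, transferrin, was at 290, 283 and 219 CPM in KO and at 308, 266 and 253 CPM in wild type, with overlap (-0.06 ± 0.14; 0.05 without KO209). Plasma proteins of this kind are made mainly by the liver, and other liver genes were low. Of 18 further liver secretory genes 5 were fitted, 0 passed the adjusted test (0 also at an unadjusted p under 0.05), and their summed level was 2.53 to 3.93 CPM in KO and 2.90 to 5.46 CPM in wild type. Alb, Ttr, Fga, Fgb and Fgg were too low to be fitted, and Apoa2 at 2.36 TPM, Apoa1 at 0.524 TPM and Ahsg at 0.310 TPM were the most abundant of that list. The called plasma-type members were low on this scale too: Serping1 at 2.93 TPM, Agt at 0.96 TPM, Kng1 at 0.475 TPM and Kng2 at 0.303 TPM. Where these transcripts came from was not tested.

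Kng2, Kng1 and Adipoq lie in this order on chromosome 16, with 28 kb between Kng2 and Kng1 and 64 kb between Kng1 and Adipoq. Genes in and beside this stretch were not called: Fetub, Gm6493, Gm8130, Eif4a2, Rfc4, 6330408M09Rik, B630019A10Rik, St6gal1, Tbccd1 and Dnajb11 had log2 fold changes from -0.96 (Gm8130) to 0.70 (Fetub), and of these 10 fitted genes 0 passed the adjusted test of edgeR or DESeq2 and 1, Rfc4, reached an unadjusted p under 0.05. Eif4a2, a translation initiation factor between Kng1 and Adipoq, was at 110 CPM in KO and 123 CPM in wild type on average. Gpx3 and Sparc, on chromosome 11, lie 484 kb apart.

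RefSeq promoter entries (GRCm38.p6) were held for 29 of the 42 members. The stretches upstream of the RefSeq starts of Adipoq, Lepr and Gpx3 are shown because these are among the 4 called members of highest mean CPM with an entry. That of Sparc, the other, lies almost wholly in annotated exons and is not shown. Capitals mark CCAAT (or its reverse complement ATTGG), the box bound by NF-Y, which was added to the search after the sequences had been seen. The Adipoq stretch runs 250 bases to the RefSeq start (chr16:23146286-23146535, plus strand, 48.8% GC). The Lepr stretch has 247 bases (chr4:101717157-101717403, plus strand, 58.7% GC) and ends 3 bases before its RefSeq start. The Gpx3 stretch has 168 bases (chr11:54902604-54902771, plus strand, 54.2% GC) and ends 82 bases before its RefSeq start. Positions of boxes are counted from the RefSeq start. By GENCODE Gpx3 starts earlier, at chr11:54902453, so its stretch lies within the gene by that annotation.
Adipoq: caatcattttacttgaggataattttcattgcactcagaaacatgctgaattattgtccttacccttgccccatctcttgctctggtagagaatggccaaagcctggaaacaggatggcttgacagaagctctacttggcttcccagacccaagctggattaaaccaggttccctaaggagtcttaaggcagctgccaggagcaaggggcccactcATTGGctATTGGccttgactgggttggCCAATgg
Lepr: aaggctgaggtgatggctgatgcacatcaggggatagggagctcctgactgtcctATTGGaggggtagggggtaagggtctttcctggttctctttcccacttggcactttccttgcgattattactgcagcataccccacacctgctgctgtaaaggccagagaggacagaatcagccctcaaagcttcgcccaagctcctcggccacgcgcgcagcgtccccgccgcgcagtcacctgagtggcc
Gpx3: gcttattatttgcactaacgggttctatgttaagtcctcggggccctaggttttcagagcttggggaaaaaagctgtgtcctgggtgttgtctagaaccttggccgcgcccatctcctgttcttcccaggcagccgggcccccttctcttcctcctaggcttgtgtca
Adipoq held 3 such boxes within 34 bases of its start, at -34 to -30, -27 to -23 and -7 to -3, and Lepr held 1 at -195 to -191. Gpx3 held 1 at -8 to -4 and a GC box at -49 to -44, both beyond the end of the stretch shown. Over 250 bases upstream and on both strands, CCAAT was present in 9 of 29 members (31%) and in 34.5% of 27025 promoters. The TATA box (TATAAA) was present in 17.2% of members and 13% of promoters, and the GC box (GGGCGG) in 48.3% and 32.9%. The C/EBP letters TTGCNNAA were in 10.3% and 9.55%, the EBF core CCCNNGGG in 6.9% and 11.7%, the forkhead letters TGTTTAC in 3.45% and 3.09%, and the E-box CACGTG in 3.45% and 6.05%. Other than CCAAT, none of these letters was found in the windows of Adipoq and Lepr, which says only that these letters are not there.

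The 9 collagen chains included 8 that were fitted, all above 0, with a median of 0.68. The fibrillar chains of types I and III, the bulk of marrow matrix, were scarce: Col1a1 was at 0.709, 0.351 and 1.21 CPM in KO and at 0.120, 0.539 and 0.512 CPM in wild type, with overlap (0.93 ± 0.54; 0.39 without KO209), and Col3a1 had 8 to 16 counts in KO and 6 to 14 in wild type (0.52 ± 0.45). Col1a2, the partner chain of Col1a1, was at 0.827, 1.08 and 1.45 CPM in KO and at 0.624, 0.705 and 0.554 CPM in wild type (0.84 ± 0.30), without overlap. Col6a1, of the microfibrillar type VI, was at 0.591, 0.505 and 0.545 CPM in KO and at 0.288, 0.269 and 0.171 CPM in wild type (1.17 ± 0.34). Col8a1, a short-chain collagen of vessel walls, had 14 to 15 counts per KO sample and 3 to 7 per wild type sample (1.59 ± 0.44). For Col1a2, Col6a1 and Col8a1 every KO sample was above every wild type sample. Col6a2 was not fitted, with 3, 16 and 26 counts in KO against 2, 3 and 5 in wild type, and Col5a1, a fibril-regulating chain, overlapped (0.45 ± 0.41).

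Matrix glycoproteins and proteoglycans were divided. Sparc, a collagen-binding glycoprotein of bone and marrow stroma (chr11, minus strand), was at 4.44, 7.29 and 6.25 CPM in KO and at 1.63, 1.33 and 2.28 CPM in wild type (1.78 ± 0.26). Tnc, tenascin C, was at 0.851, 0.812 and 1.82 CPM in KO and at 0.216, 0.477 and 0.512 CPM in wild type (1.52 ± 0.43), with KO209 above the rest. Esm1, a proteoglycan of endothelial cells, was at 0.851, 0.593 and 0.766 CPM in KO and at 0.240, 0.415 and 0.235 CPM in wild type (1.29 ± 0.34). Neither these nor Dcn overlapped between the groups; Dcn, the small proteoglycan decorin, had 11, 26 and 24 counts in KO and 5, 10 and 11 in wild type (1.21 ± 0.43).

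Bgn, biglycan, the close relative of decorin, ran the other way on average. It was at 4.75, 7.20 and 8.57 CPM in KO and at 8.56, 8.33 and 11.7 CPM in wild type (-0.48 ± 0.23), KO209 level with WT178 and above WT180. Fbn1, fibrillin, was at 2.15, 0.966 and 0.645 CPM in KO and at 0.792, 2.32 and 1.05 CPM in wild type, so that 1 sample of each genotype stood above the others (-0.19 ± 0.52), and 20.1% of its exon bases overlap another annotated gene. The sign of Fbn1 turned when WT180 was left out (0.40). Fn1, fibronectin (0.54 ± 0.35), and Postn, periostin (0.34 ± 0.49), overlapped between the groups, and Postn was at -0.27 without KO209. Sparcl1 and Lum, lumican, had at most 6 counts in any sample, 1, 2 and 6 against 1, 3 and 3 for Sparcl1 and 1, 2 and 1 against 2, 4 and 5 for Lum. Ms4a4d, a membrane protein of unsettled function, was at 0.473, 0.483 and 0.363 CPM in KO and at 0.120, 0.124 and 0.0853 CPM in wild type (1.97 ± 0.40), without overlap, and Arrdc4, an arrestin-like protein, was at 16.2, 17.1 and 28.7 CPM in KO and at 18.2, 21.9 and 27.8 CPM in wild type (-0.13 ± 0.24; 0.05 without WT207).

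The sample numbers fall into 2 ranges, the lower holding KO176, KO177, WT178 and WT180 and the upper WT207 and KO209, so that both genotypes are in both, and what a range marks is not given in the labels. Within the lower range (2 KO against 2 wild type samples) 30 of the 37 fitted members were higher in KO, within the upper range (1 against 1) 31 were, and 27 were in both, including all 9 called members. Over all genes 49.2% were higher in the lower range, 48.1% in the upper range and 28.3% in both. In the 9 called members all KO samples lay above all wild type samples, so being higher in both ranges was fixed in advance. The split uses again the contrast that partly chose the list, and nothing is read from these counts. The log2 ratio (with 0.5 CPM added to both sides) of Cxcl12 was 2.42 in the lower range and 1.54 in the upper, that of Lpl 1.35 and 0.49, and that of Agt 1.28 and 1.76. The median over the 37 members was 0.46 and 0.61.

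The rule for choosing the members names a rise in KO and not the number range, and the range was tested. Earlier results of these data were known when the list was drawn up, so this test is not taken as independent of the choice. With genotype in the model, 2 of the 38 members in this fit were called, both higher in WT207 and KO209, where 0.483% of 19259 genes were called in either direction. These are Col4a1 and Col4a2, 2 of the chains of type IV collagen, the network of basement membranes. Col4a1 was at 7.07, 6.87 and 16.9 CPM in KO176, KO177 and KO209 and at 6.33, 8.27 and 11.98 CPM in WT178, WT180 and WT207. KO209 and WT207 were the highest samples, a difference of 1.03 ± 0.17 on the log2 scale (edgeR adjusted p = 0.0288). Col4a2 was at 5.74, 5.51 and 12.1 CPM in KO and at 4.58, 7.15 and 10.3 CPM in wild type, with the same order of the ranges (0.98 ± 0.18, edgeR adjusted p = 0.0481). Between genotypes the same chains overlapped, at 0.22 ± 0.41 and 0.09 ± 0.39, and both fell below 0 without KO209 (-0.35 and -0.39). Col4a1 and Col4a2 lie head to head on chromosome 8 and their first exons overlap by 22 bases on opposite strands, so a few reads could not be told apart without strand.

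Arrdc4 came next in that contrast, at 0.65 ± 0.13 (adjusted p = 0.0608), and did not pass. At an unadjusted p under 0.05, 13 of the 38 members differed between ranges, where 18.2% of all genes did, and 24 were above 0 and 14 below, with a median of 0.31 for members and 0.03 over the genes fitted for genotype. Members with large genotype differences varied in the range contrast: Adipoq was at -0.02 ± 0.37, Lepr at 0.22 ± 0.30 and Cxcl14 at -0.36 ± 0.31, while Agt was at 0.62 ± 0.31, Serping1 at 0.63 ± 0.19, Igfbp5 at 0.65 ± 0.32, Cxcl12 at 0.74 ± 0.23 and Chrdl1 at 1.03 ± 0.44, and none of these 8 passed the adjusted test. Without KO209 or without WT207 edgeR called 0 members in the range contrast, and without KO176, KO177 or WT178 it called 1.

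**Figure D3:**
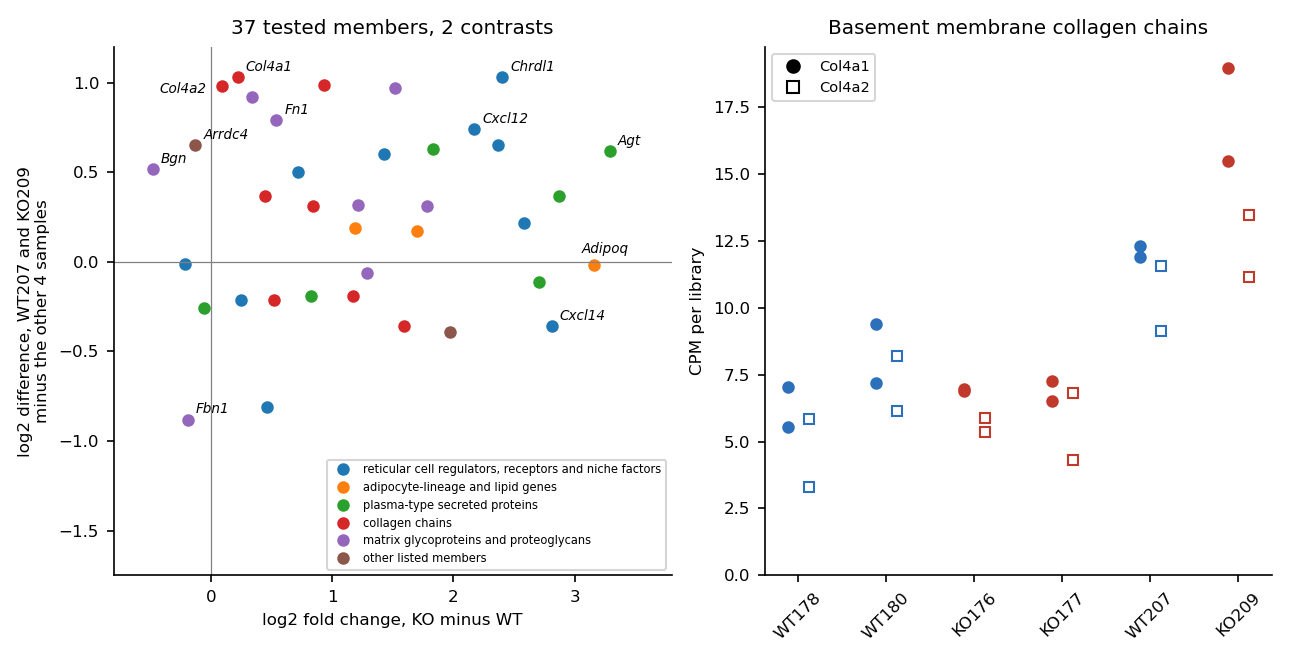
Left, log2 difference of WT207 and KO209 minus the other 4 samples, adjusted for genotype (y axis) against log2 fold change of KO minus WT (x axis) for the 37 members fitted for genotype, coloured by role; right, CPM of Col4a1 and Col4a2 in each library (blue wild type, red KO). Col4a1 and Col4a2 sit near 1 on the y axis and near 0 on the x axis, and all WT207 and KO209 libraries of Col4a1 lie above those of the other numbers.

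Levels between genes were compared per exon length, in TPM. Igfbp4 (315 TPM on average over the 6 samples), Trf (216 TPM) and Hp (197 TPM) were far above the rest, are transcribed in many cell types besides stroma, and lay at the 94.5th percentile of fitted genes or above. Pdgfrb followed at 27.3 TPM, then Arrdc4 at 14.5 TPM and Gpx3 at 13.96 TPM. None of these 6 but Gpx3 was called. The other 36 were at 3.64 TPM (Bgn) or less, including Cxcl12 at 1.16 TPM in wild type and 5.06 TPM in KO, and Lepr at 0.112 TPM in wild type and 0.655 TPM in KO. Lepr lay at the 12.1st percentile of fitted genes and Cxcl12 at the 37.1st.

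**Figure D4:**
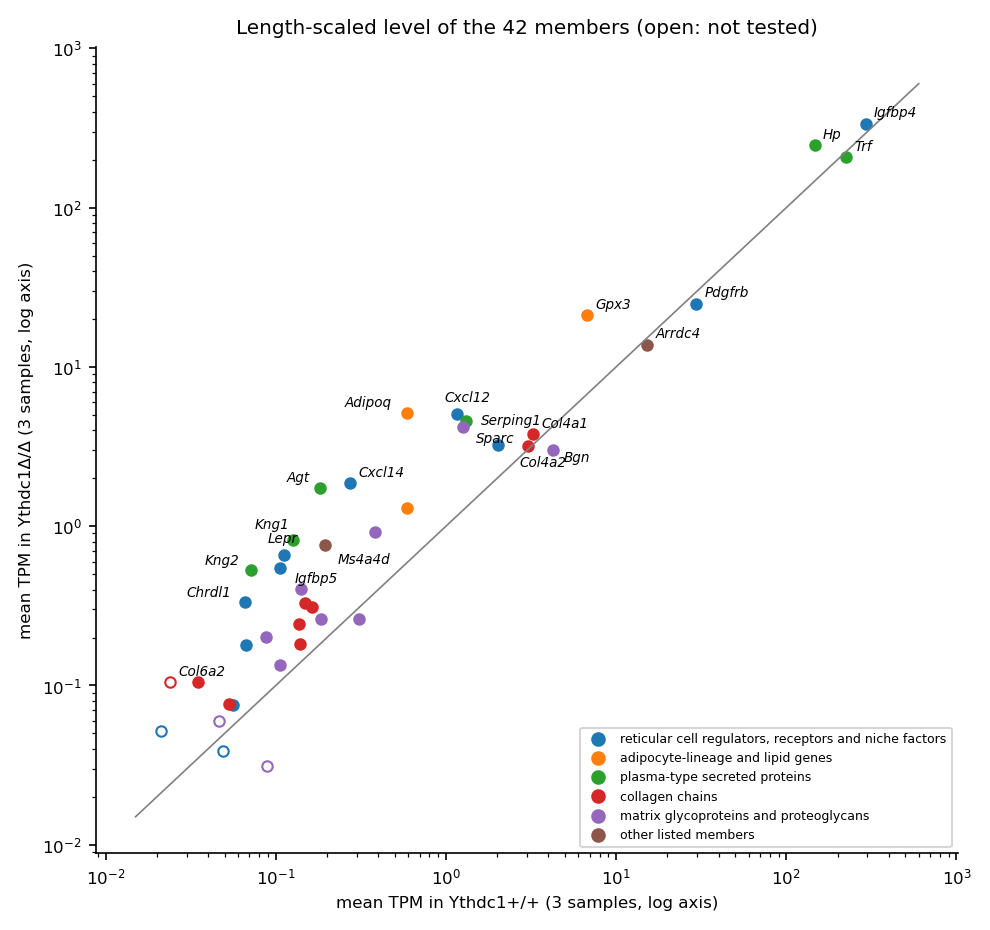
Mean TPM in KO (y axis) against wild type (x axis) HSCs of the 42 members, both on log axes, coloured by role; open points were not fitted and the grey line marks equal levels. Igfbp4, Trf, Hp, Pdgfrb and Arrdc4 lie at the high end near the line, and Adipoq, Agt, Cxcl14, Lepr and the kininogens lie far above the line at lower levels.

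The spread between samples was wider than that between libraries of a number. The median gap between the 2 libraries of a number was 0.20 on the log2 scale (CPM plus 0.5), against a median range over samples of 0.56 within KO and 0.39 within wild type, and the KO range exceeded the wild type range in 24 of 37 members. The 0.5 CPM added narrows the ranges of low values, and most members were lower in wild type. Agt, at 0.0829 to 0.168 CPM in wild type, had a range of 0.20 there on this scale. The 2 genotypes are therefore not compared in relative spread. KO209 held the highest value for 16 members, KO177 for 9 and KO176 for 8, while WT178 was the lowest sample for 14, WT180 for 11 and WT207 for 7. Over all fitted genes KO209 was the highest sample for 19.2%, KO177 for 7.29% and KO176 for 26.6%, and WT178 was the lowest for 14.7%, WT180 for 13.2% and WT207 for 16.3%. Individual members departed from that order: Gpx3 and Hp peaked in KO176, and Adipoq, Lpl and Sparc in KO177.

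Reticular and mesenchymal genes outside the list gave 0 edgeR calls between genotypes, but more of them than of all genes were higher in KO without adjustment. Of 44 other reticular and mesenchymal genes 34 were fitted, with a median of 0.26 and 22 above 0, and 0 passed edgeR's adjusted test. At an unadjusted p under 0.05, 13 were higher and 2 were lower, where 4.28% of all genes were higher. In 12 all KO samples lay above all wild type samples (7.72% of all genes), and in 5 all lay below (8.61% of all genes). The list was drawn up with earlier results of these data known. DESeq2 called 6 of them, named here after their values were seen: Snai2 (3.08), Ccn5 (2.29), Fbln5 (1.82), Sfrp4 (1.74) and Nrp1 (1.19) higher and Tgfbr3 (-0.58) lower, with edgeR's log2 fold changes in parentheses. The most abundant genes of this list were Tmem176b (652 TPM, -0.24 ± 0.13), Apoe (593 TPM, -0.56 ± 0.23) and Tmem176a (162 TPM, -0.22 ± 0.11), all transcribed in blood cells too. The list summed to 1500 to 1709 CPM in KO and 1811 to 1933 CPM in wild type, lower in every KO sample. The most abundant genes weigh most in that sum, so it does not describe the scarcer ones. Zeb2, a transcription factor of mesenchymal and blood cells, was called lower in WT207 and KO209 (-0.62 ± 0.11, edgeR adjusted p = 0.0442).

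Bone, vessel wall and matrix lists gave 1 edgeR call. Of 20 osteoblast and chondrocyte genes 8 were fitted (median 0.33, 0 called, 2 higher at an unadjusted p under 0.05), with Spp1, osteopontin, at 16.7 TPM, Omd at 2.19 TPM and Ifitm5 at 1.82 TPM. Of 12 pericyte and smooth muscle genes 8 were fitted (median 0.10, 0 called, 2 higher and 1 lower unadjusted), with Myl9, Acta2 and Kcnj8 all under 1 TPM. Of 35 other collagen genes 26 were fitted (median -0.15, 0 called, 0 higher and 1 lower unadjusted), with Col16a1 at 4.65 TPM, Col11a2 at 1.65 TPM and Col18a1 at 0.939 TPM. Of 37 matrix enzymes and inhibitors 31 were fitted (median 0.12, 0 called, 3 higher and 3 lower unadjusted), led by P4hb at 476 TPM, Colgalt1 at 105 TPM and Crtap at 96.9 TPM, which act on procollagen in most cells. DESeq2 called 0 genes of the bone, pericyte, collagen, adipocyte, liver, neutrophil and receptor lists, and 1 matrix enzyme, Mmp14, lower.

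Of 43 other matrix glycoproteins and proteoglycans 36 were fitted, with a median of 0.03 (at an unadjusted p under 0.05, 4 higher and 2 lower), and edgeR called 1. DESeq2 called 3, Matn4, Mfap2, a microfibril protein (-0.97 ± 0.22), and Prelp, a small proteoglycan (1.67 ± 0.32). Matn4, matrilin 4, a matrix protein that HSCs themselves transcribe, fell in KO: its mean was 0.0579 ± 0.0096 CPM in KO and 0.671 ± 0.103 CPM in wild type (SD, n = 3 each), a difference of -3.47 ± 0.42 (edgeR adjusted p = 0.0216). Emilin1 at 108 TPM, Emilin2 at 31.9 TPM and Ecm1 at 13.9 TPM were the most abundant and lay within 0.32 of 0. The receptors on HSCs for member ligands and matrix gave 0 calls among 22 fitted of 26 (median -0.02, 1 higher and 1 lower unadjusted), with Itga2b at 97.6 TPM, Itgb1 at 95.1 TPM and Adipor1 at 91.3 TPM.

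**Figure D5:**
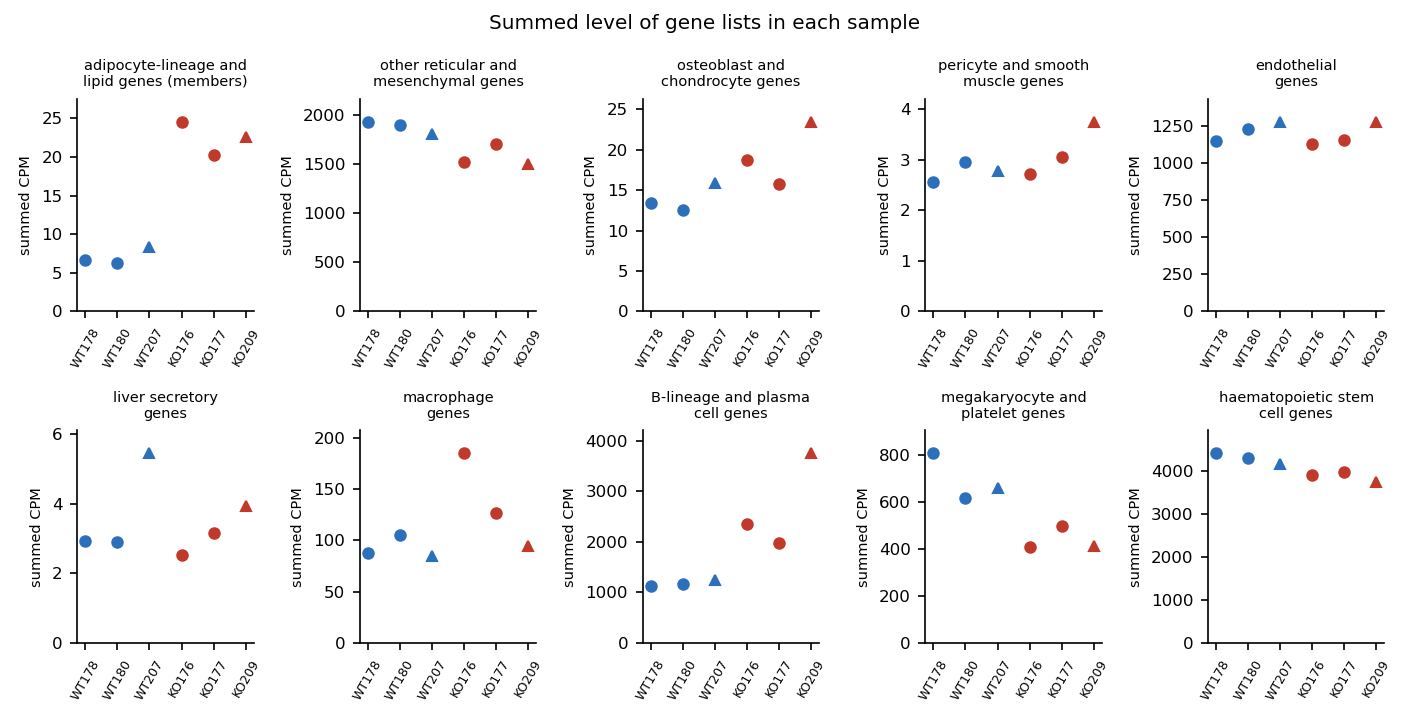
Summed CPM (y axis) in the 6 samples (x axis; blue wild type, red KO, triangles for WT207 and KO209) of the 3 fat-lineage members and of 9 lists that leave the members out. B-lineage genes lie higher in every KO sample. Other reticular and mesenchymal genes, megakaryocyte genes and HSC genes lie lower in every KO sample, and the endothelial, pericyte and liver sums overlap between the genotypes.

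Markers of other blood and marrow cells differed in part between the genotypes, and their part in the members' difference was not tested. B-lineage and plasma cell genes summed to 1981 to 3754 CPM in KO and 1129 to 1250 CPM in wild type, with 15 of 16 above 0, a median of 0.70, 9 higher and 0 lower unadjusted, 4 called by DESeq2 (Cd79a, Ighm, Mzb1 and Pou2af1) and 1 by edgeR: Pou2af1, a coactivator of B cells, rose by 1.63 ± 0.22 on the log2 scale (edgeR adjusted p = 0.0332), beside Ighm at 1820 TPM (1.49 ± 0.27), Iglc1 at 363 TPM and Xbp1 at 231 TPM. Macrophage genes summed to 94.4 to 185 CPM in KO and 85.0 to 106 CPM in wild type, and edgeR called 1 of 14 fitted (4 higher and 0 lower unadjusted), Gpnmb, a lysosomal glycoprotein, which rose by 1.73 ± 0.26 (edgeR adjusted p = 0.0456). DESeq2 called Gpnmb and C1qb, a complement subunit (0.84 ± 0.19, no overlap). C1qb at 25.1 TPM, Csf1r at 19.5 TPM and C1qa at 12.4 TPM led that list, and Marco and Timd4 were too low to be fitted. Megakaryocyte and platelet genes, among them Pf4 at 195 TPM and Itga2b at 97.6 TPM, summed to 411 to 498 CPM in KO and 617 to 810 CPM in wild type, with 9 of 10 below 0 and 0 called (0 higher and 5 lower unadjusted; DESeq2 called Vwf lower).

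Mature neutrophil genes, among which Hp belongs by its granule form, had a median of 0.40 with 13 of 14 above 0 and 0 called (2 higher unadjusted), led by S100a8 at 6971 TPM, Ngp at 6010 TPM and S100a9 at 5556 TPM. Endothelial genes, led by Adgrl4 at 181 TPM, Egfl7 at 148 TPM and Eng at 128 TPM, which HSCs also transcribe, summed to 1127 to 1280 CPM in KO and 1150 to 1277 CPM in wild type (0 called of 23 fitted, 1 higher and 3 lower unadjusted). Cdh5, the defining cadherin of endothelial cells, was too low to be fitted, and DESeq2 called Tek and Vwf of that list lower. HSC genes had a median of -0.31, with 17 of 20 below 0 and 0 called (0 higher and 6 lower unadjusted; DESeq2 called Hoxb5 and Tek lower). Over all 348 listed genes that are not members, 271 were fitted, the median was 0.06 and 3 were called; without KO177, WT178, WT180 or WT207 in turn, 0 were.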

How the data were processed

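Polyadenylated RNA of sorted HSCs had been amplified with a SMARTer Ultra Low Input kit, sonicated and sequenced in 12 libraries. The authors deposited raw counts of read pairs per gene (featureCounts 2.0.1 per the labels; exons summed by gene, mm10, GENCODE annotation, no strand option, multi-mapping reads not counted), with summed exon length for each gene; the methods name Hisat2 as aligner. The p-values take in counting error as well as spread among the 6 samples, part of which may be technical. From these counts, the 2 libraries of each sample number were summed, giving 3 KO and 3 wild type samples. Genes were kept with filterByExpr (minimum count 10, minimum total 15), scaled by TMM and fitted with the robust quasi-likelihood model of edgeR 4.0.16 in R 4.3.3, with Benjamini-Hochberg adjustment over all 18234 genes kept and a threshold of 0.05. Errors beside fold changes are SE from that fit. A second fit added the range of sample numbers (WT207 and KO209 against the other 4 samples) to genotype and tested that term. CPM used TMM library sizes and TPM the deposited exon lengths. DESeq2 1.42.0 and limma 3.58.1 served as alternatives, as did other scalings, filters, replicate units, call rules and leaving out each sample. The steps were tested on simulated counts, in which the false calls were more frequent than the threshold states. Calls with an adjusted p close to 0.05 are therefore less sure than that value says.

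All 42 members, the genes called in each further list and its 3 genes of highest mean TPM are named, except for a gene that is not reported here, together with neighbours of Kng1 and Adipoq chosen by position. The members and lists were chosen with earlier results of these data known. Promoters are from RefSeq; Python 3.11.15 and matplotlib 3.10.9 drew the plots. Over all fitted genes, deviations from the genotype mean correlated at 0.07 to 0.60 between the 2 libraries of a number, and at -0.32 to 0.42 between libraries of different genotype that share the digit after the number, so that digit was not taken as a pairing.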

Additional observations from a re-analysis of the deposited data

Results flagged for a closer look

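Col5a1, a fibril-regulating collagen chain, was the single member with a library far from the others of its genotype: library 2 of KO176 stood at 1.05 CPM, while the other 5 KO libraries lay between 0.366 and 0.612 CPM. The gap to the nearest library, as a share of the range of the 6 KO libraries, passed the Dixon limit of 0.625. Of 74 such groups (37 members in 2 genotypes) 1 passed. The limit assumes 6 independent values, whereas the libraries come in pairs from the same number, so no chance rate is set beside this count. Without KO176 the log2 fold change of Col5a1 was 0.15, against 0.45 with all samples.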

How the results depend on the processing

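Of the values of single members under the alternatives, 517 moved by less than their spread, 29 moved by more and 0 reversed a call. The count of members called higher (9) was 5 with upper quartile scaling and 0 with a minimum count of 50. At that minimum Lepr (2.57), Cxcl14 (2.8), Adipoq (3.15), Gpx3 (1.69), Serping1 (1.82) and Sparc (1.77) were still fitted (log2 fold changes) but not called. The count was 14 with the 12 libraries taken as separate samples, and 17 when a replicate block for the digit after the number was added to those. It was 20 by the rule of at least 2-fold and unadjusted p of at most 0.05, and 23 at unadjusted p alone. Leaving out each sample gave 0 to 9. DESeq2 called 13, adding Cxcl12, Igfbp5, Chrdl1 and Lpl. No alternative called a member lower.

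Genes called over all genes (25) were 16 with upper quartile scaling, 73 without a filter, 3 with a minimum count of 50, 15 with the legacy option, 217 with DESeq2, 751 with 12 libraries, 729 with the replicate block, 131 with voomLmFit, 88 with a range term, 359 at 2-fold, 1729 unadjusted, and 1 to 81 on leaving out each sample. Listed genes outside the members (3) were 11 without a filter, 0 at a minimum of 50, 20 with DESeq2, 32 with 12 libraries, 34 with the replicate block, 11 with voomLmFit, 8 with a range term, 29 at 2-fold, 64 unadjusted, and 0 to 8 by sample left out. The median of the members (1.19) was 0.76 at a minimum of 50 and 0.86 with voomLmFit. Members called between number ranges (2) were 1 with RLE scaling, 0 at a minimum of 50, 10 with 12 libraries, and 0 to 2 by sample left out. The strict filter leaves fewer genes, and each fit with a sample left out has fewer samples. Whether these or other causes changed the counts was not tested. Ranked without length, Col4a1 replaced Gpx3 among the 6 most abundant members.

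Depth limits the lowest members: 5 of 42 were not fitted, and 11 of the 37 fitted had under 40 counts in every sample. The p-values rest on 3 samples a genotype.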
